A study of Rattus norvegicus with 6 samples.

Results

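Cdh2, Fgf2 and Pdcd10 are genes of cell junctions and blood vessels that were read in rat testis by 1 probe each, 3 of the 39886 probes on the array apart from controls. Of 38 genes with an assigned mRNA probe, they were selected on their names and on measured values, namely the difference between the groups and the detection flags in these 6 arrays. The difference between the groups is therefore given below as a description. Where calls of a fit over all probes are counted, they describe the same values and support nothing. Almost all other probes, 39727, carry the identifier of a PIWI-interacting RNA.

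Total RNA of whole testis from male Sprague-Dawley rats was hybridised to 6 one-colour Agilent arrays, 1 per rat. The control group was 3 rats gavaged with corn oil. The DEHP group was 3 rats gavaged with di(2-ethylhexyl) phthalate, a plasticizer, at 1000 mg/kg/day. Dosing lasted 28 days in rats 6 weeks old before acclimatization, and the labels give an age of 11 weeks for both groups. In the design text the 2 treatments stand in the opposite order to the 2 groups. The direction of each difference was taken from the labels of the samples. The agent was dissolved in corn oil per the design text, so both groups received the vehicle.

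The testis keeps its developing germ cells behind the blood-testis barrier, a belt of junctions between neighbouring Sertoli cells, the somatic nurse cells of the seminiferous tubule. Cdh2 encodes N-cadherin, a calcium-dependent adhesion protein that joins Sertoli cells to each other and to germ cells and is tied to actin through catenins. Fgf2 encodes basic fibroblast growth factor, a heparin-binding ligand of FGF receptors that promotes vessel growth and, in rodent testis cultures, the survival and self-renewal of spermatogonial stem cells. Pdcd10 encodes programmed cell death 10, also called CCM3, an adaptor of GCKIII kinases and of the STRIPAK phosphatase complex. Loss of its human counterpart underlies cerebral cavernous malformations, in which capillary walls are leaky.

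Detected probes, those well above background, numbered 16802 to 23820 per array in controls and 22336 to 23866 in the DEHP group. Control 1 had the lowest number, 16802. The headers give control 1 and the 3 DEHP arrays 1 scan identifier, read here as slide 1, and controls 2 and 3 another, read as slide 2. Of 106 genes of junction, FGF, cavernous malformation, vessel and testis cell type lists, 4 had a probe: the 3 genes described here and Lhcgr, the luteinizing hormone receptor that marks Leydig cells. Lhcgr was detected on all 6 arrays. The defining markers of Sertoli cells, germ cells, endothelium and macrophages were not among the probes with an assigned gene, so the cell composition of the samples could not be read. In whole testis, a different number of cells of a type and a different RNA content per cell cannot be told apart.

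Cdh2 gave a dim signal in control testis and a brighter one in DEHP testis. Averaged over spots, the background-subtracted processed signal of its probe, A_44_P349475, was 10.1, 12.6 and 10.2 intensity units on control arrays 1, 2 and 3. It was 35.4, 39.1 and 20.7 on DEHP arrays 1, 2 and 3. All 3 DEHP arrays lay above all 3 control arrays, and DEHP 3 was the lowest of its group. The scanner software called 0, 0 and 1 of the 10 spots well above background in control testis, and 10, 10 and 8 of them in DEHP testis. All 10 spots were called positive and significant on each of the 6 arrays, the weaker of the scanner's 2 calls. The brightest of 153 negative control spots lay above every Cdh2 and Fgf2 spot on control 1, DEHP 1 and DEHP 3. On control 2, control 3 and DEHP 2, it lay below 10, 8 and 10 of the Cdh2 spots and below all 10 Fgf2 spots.

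**Figure D1:**
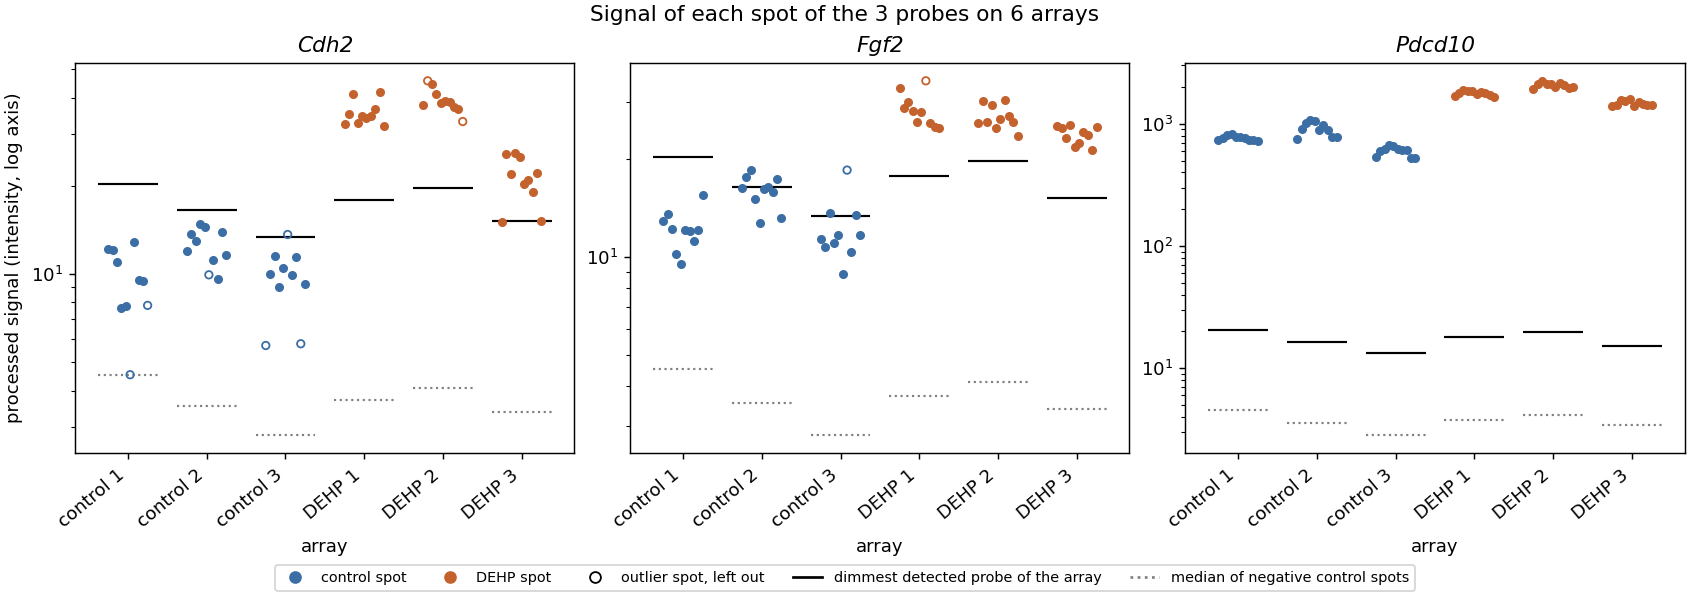
Processed signal of every spot (log axis) of the Cdh2, Fgf2 and Pdcd10 probes on each array, with the dimmest detected probe of that array as a black line and the median of its negative control spots as a dotted line. Control spots of Cdh2 and Fgf2 lie mostly at or below the black line, their DEHP spots almost all above it, and every Pdcd10 spot lies far above it.

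Relative to the 75th percentile of each array, the log2 signal of Cdh2 was -2.39, -2.72 and -2.54 in control testis and -0.99, -1.09 and -1.86 in DEHP testis. The group means were -2.55 ± 0.16 and -1.32 ± 0.47 (SD, n = 3), a difference of 1.23 with a standard error of 0.27. The lowest DEHP value exceeded the highest control value by 0.53. Since no control array detected the probe, its fold change has only a bound. The control level was taken as the higher of its own signal and that of the dimmest detected probe of the array. On that rule the mean level of Cdh2 in DEHP testis was at least 1.56-fold higher than in controls. The bound leaves out the spread between arrays. The floor is not a strict limit either, since undetected spots can be brighter than the dimmest detected probe. The bound was at least 1.89-fold without control 1 and at least 1.05-fold with control 1 as the only control. Control 1 had the highest such floor, at -1.39 against -2.32 and -2.15 in controls 2 and 3.

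The local background around the Cdh2 spots was not equal between the groups. Its median was 21.5, 20.0 and 15.8 intensity units on the control arrays and 16.0 on each DEHP array. The raw median spot signal less this background was 29.0, 24.0 and 20.3 in control testis and 54.5, 56.3 and 39.8 in DEHP testis. The groups did not overlap on that scale. The part of local background in the difference was not tested. With the normexp background correction and an offset of 50, which compresses dim signals by construction, the Cdh2 difference was 0.21 after percentile centring and 0.23 after quantile normalization.

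Within slide 1, where control 1 is the only control and its variation is taken to equal that of the treated arrays, the Cdh2 difference was 1.08 with a standard error of 0.32. The spots of the probe had an SD of 0.09 to 0.29 log2 units per array, and the highest standard error of an array's mean over spots was 0.104. The SD between the 3 DEHP arrays was 0.47, which holds labelling and hybridisation error as well as differences between rats. DEHP 3 lay farthest from the other DEHP arrays, and without it the difference was 1.51.

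Fgf2 showed the same order of groups with a smaller difference. The processed signal of its probe, A_44_P212850, was 12.0, 15.8 and 11.3 intensity units on control arrays 1, 2 and 3, and 27.7, 27.0 and 23.8 on the DEHP arrays. Every DEHP array lay above every control array. Of 10 spots, 0, 1 and 1 were well above background on the control arrays and 10 on each DEHP array.

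On the centred log2 scale Fgf2 stood at -2.15, -2.38 and -2.38 in control testis and at -1.35, -1.62 and -1.66 in DEHP testis. The means were -2.30 ± 0.14 and -1.54 ± 0.17 (SD, n = 3), a difference of 0.76 with a standard error of 0.21. The lowest DEHP value exceeded the highest control value by 0.48. The fold change again has only a bound, with the same limits as for Cdh2. On the same rule the mean level of Fgf2 in DEHP testis was at least 1.33-fold higher than in controls. The bound was at least 1.61-fold without control 1 and at least 1.17-fold without control 2. With control 1 as the only control the floor lay above the DEHP mean and no fold can be given.

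The median local background of the Fgf2 spots was 19.8, 18.0 and 15.5 intensity units in control testis and 15.8, 15.3 and 16.0 in DEHP testis. Less that background, the raw median spot signal was 30.3, 29.5 and 21.5 in control testis and 46.8, 45.5 and 42.5 in DEHP testis. As for Cdh2, no control array reached a DEHP array on that scale. After the normexp correction the Fgf2 difference was 0.10 with percentile centring and 0.12 with quantile normalization. In the authors' deposited value table, log2 values of Fgf2 were 4.07, 3.61 and 3.99 in control testis and 4.67, 4.26 and 4.29 in DEHP testis, a difference of 0.51. Within slide 1 the difference was 0.60 with a standard error of 0.24.

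The Fgf2 gene lies on chromosome 2 at 122164454 to 122218796 in the GRCr8 assembly. Its end overlaps Nudt6, a gene for a nudix hydrolase, over 766 bp. The place of the probe in the transcript was not known here, so whether it falls in the shared stretch was not tested. Cdh2 lies on chromosome 18 at 8051097 to 8265288, and no other gene in the annotation used here overlaps it or starts within 1 kb.

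Pdcd10 was bright in every testis and was higher in all 3 DEHP testes. The processed signal of its probe, A_43_P19174, was 766, 907 and 597 intensity units on control arrays 1, 2 and 3, and 1772, 2075 and 1469 on the DEHP arrays. The lowest DEHP array exceeded the highest control array by 563 units. All 10 spots passed the detection call on each of the 6 arrays, and none was saturated, so the fold change of Pdcd10 is measured and not a bound.

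On the centred log2 scale Pdcd10 was 3.84, 3.46 and 3.33 in control testis and 4.65, 4.64 and 4.29 in DEHP testis. The means were 3.54 ± 0.27 and 4.53 ± 0.21 (SD, n = 3). The difference was 0.98, which is 1.97-fold, with a standard error of 0.19. Control 1 was the highest control for Pdcd10, as it was for Cdh2 and Fgf2. Within slide 1 the Pdcd10 difference was 0.68 with a standard error of 0.21. It was 1.13 without control 1, where both remaining controls lie on the other slide from the DEHP arrays. The part of the slide in these differences was not tested apart from the values of slide 1, since that slide holds 1 control array.

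**Figure D2:**
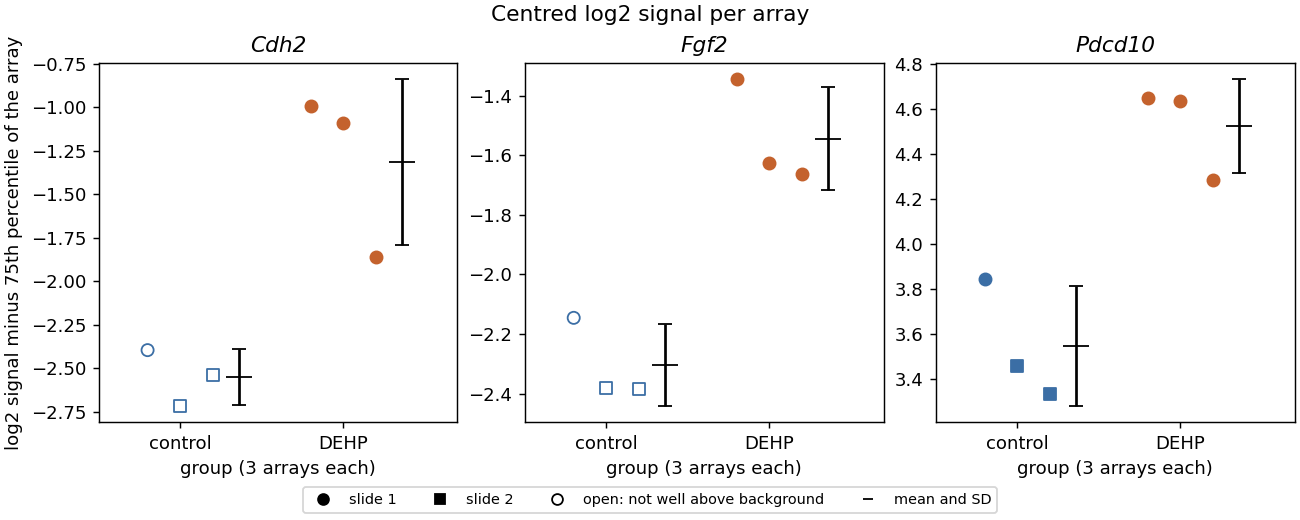
Log2 signal minus the 75th percentile of the array for each of the 6 arrays, with the mean and SD of each group of 3. Circles are arrays of slide 1, squares arrays of slide 2, and open symbols arrays where the probe was not well above background. In each panel the 3 DEHP arrays lie above the 3 control arrays, and the control on slide 1 is the highest control.

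The spots of the Pdcd10 probe had an SD of 0.06 to 0.19 log2 units per array, and the standard error of an array's mean was at most 0.06. The SDs between arrays of a group, 0.27 and 0.21, also hold the error of labelling and hybridisation, which was not measured. Local background around these spots was 22.5, 20.8 and 15.8 in control testis and 15.0 to 16.0 in DEHP testis, small beside the signal. The normexp correction gave differences of 1.07 and 1.19 for Pdcd10. In the authors' deposited value table Pdcd10 had log2 values of 9.75, 9.57 and 9.18 in control testis and 10.82, 10.95 and 10.45 in DEHP testis, a difference of 1.24. The groups did not overlap there either.

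The Pdcd10 gene lies on chromosome 2 at 162602516 to 162644690 in GRCr8. The nearest other gene, Serpini1, which encodes the serine protease inhibitor neuroserpin, begins 518 bp away. The RefSeq promoter set used here had no entry for Cdh2. Sequences just outside the 5′ end of the annotated gene are shown for Fgf2 and Pdcd10. They are RefSeq sequences of build GRCr8, written 5′ to 3′ on the strand of the gene, with the motif matches listed below in capitals. Fgf2 is chr2:122164204-122164453 on the plus strand, 250 bases. Pdcd10 is chr2:162644691-162644862 on the minus strand, 172 bases, since the other 78 of its 250 promoter bases in the RefSeq table lie inside the gene span and are not shown.

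Fgf2: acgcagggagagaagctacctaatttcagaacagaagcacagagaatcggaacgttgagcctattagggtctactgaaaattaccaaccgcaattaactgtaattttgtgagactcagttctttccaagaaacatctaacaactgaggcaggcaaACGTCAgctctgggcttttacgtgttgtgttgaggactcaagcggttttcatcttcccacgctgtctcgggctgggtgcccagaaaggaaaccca

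Pdcd10: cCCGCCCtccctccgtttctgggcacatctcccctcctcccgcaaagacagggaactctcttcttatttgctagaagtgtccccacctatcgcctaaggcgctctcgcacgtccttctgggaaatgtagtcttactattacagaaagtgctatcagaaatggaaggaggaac

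Both strands were searched for 6 short motifs, and no match overlapped another. They were the TATA box TATAAA, the CCAAT box, the Sp1-family GC box GGGCGG, the ETS-family core CCGGAA, the CREB-family core TGACGT and the nuclear receptor core AGGTCA. The Fgf2 stretch held 1 match, ACGTCA, the reverse complement of the CREB-family core TGACGT, beginning 95 bases before the gene. That motif occurs in 6.95% of 33469 rat promoter stretches of 250 bases. The Pdcd10 stretch held 1 match, the reverse complement of the GC box GGGCGG, beginning 171 bases before the gene. The GC box occurs in 19.7% of promoter stretches cut to the same 172 bases, the first of their 250, which stop short of the start site. The nuclear receptor core AGGTCA had no match in these letters of either gene, and occurs in 14.1% of stretches of the first length and 9.53% of the second. The GC content was 46.8% for Fgf2 and 52.3% for Pdcd10, against medians of 51.2% and 50.6% over stretches of those lengths. These matches describe letters only and do not show binding.

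In the fit over all 23090 probes kept, each of the 3 probes was called at a limma adjusted p below 0.05 and was higher in DEHP testis. Of all probes kept, 10.7% were called in either direction and 4.44% were called higher. Almost all of these carry the identifier of a PIWI-interacting RNA. Among the mRNA probes kept from the manufacturer's catalogue, the kind to which all 3 belong, most were called higher, so the call was common there. The 3 probes had no overlap between the groups with the DEHP arrays on top, which was seen in 20.6% of all probes kept. Detection on all 3 DEHP arrays and no control array, as for Cdh2 and Fgf2, was seen in 0.98% of all 39886 probes and in 3 of the 67 mRNA probes. The third was 1 of 3 probes of Sdha, a subunit of succinate dehydrogenase. Since these values chose the genes, nothing is read from the counts. Probes had to be well above background on 3 of 6 arrays to be kept, and Cdh2 and Fgf2 passed only through their DEHP arrays.

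The median difference of the 3 probes was 0.98, or 0.64 with Cdh2 and Fgf2 at their bounds, against 0.05 for all probes kept and 0.44 for the 56 mRNA probes kept. The medians over all probes and over mRNA probes use measured values and no bounds. Since the 3 were chosen on this difference, the medians are set side by side as a description only. Cdh2 and Fgf2 were not placed in order among the probes, since their control level is a bound. Among the 25 mRNA probes from the manufacturer's catalogue, the kind to which all 3 belong, the median was 0.74. With the slide as a block the differences were 1.08 for Cdh2, 0.60 for Fgf2 and 0.68 for Pdcd10. None of the 3 was called there, where 0.0303% of all probes were. With the arrays of slide 1 alone and the same differences none of the 3 was called either, where 8.80% of all probes were.

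**Figure D3:**
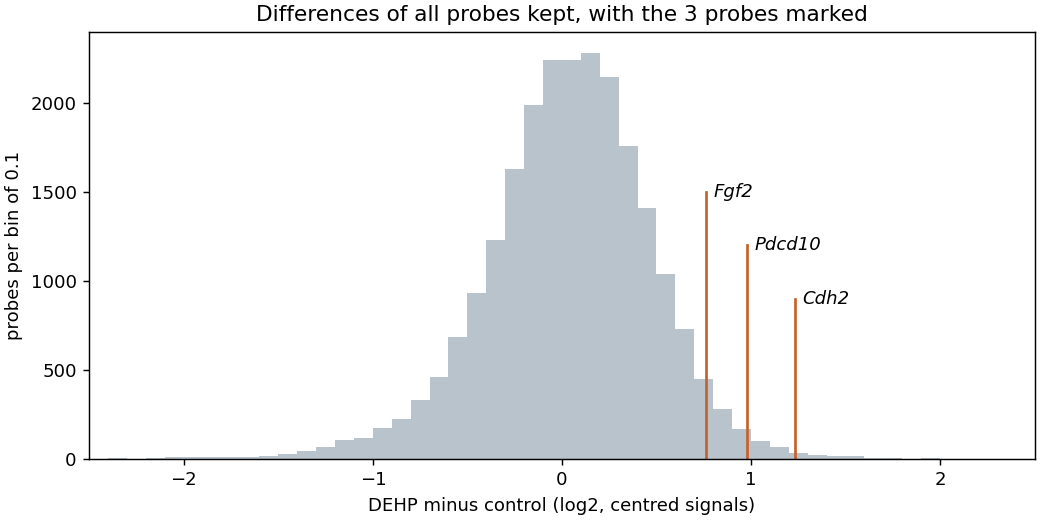
Number of probes (y axis, bins of 0.1) by their difference of DEHP minus control on the centred log2 scale (x axis), for the 23090 probes kept, with Cdh2, Fgf2 and Pdcd10 marked by lines of arbitrary height. For Cdh2 and Fgf2 the line is the measured difference, whose control level is a bound. The 3 lines, at 1.23, 0.76 and 0.98, stand on the right flank, while the median of all probes is 0.05. The genes were chosen on this difference.

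The 3 genes varied together across the 6 arrays, and less so within the groups. Pearson's r of centred log2 values over 6 arrays was 0.95 for Cdh2 with Fgf2, 0.96 for Cdh2 with Pdcd10 and 0.97 for Fgf2 with Pdcd10. After the mean of each group was removed, r was 0.66, 0.75 and 0.78. These points share arrays, slides and the group difference, and r is given as a description. The control values of Cdh2 and Fgf2 that enter it were not well above background. DEHP 3 was the lowest DEHP array for all 3 genes.

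The mRNA probes of other genes whose profile over the 6 arrays was most like each of the 3 were found by the highest r among 55 kept probes, of which 44 had an r above 0. For Cdh2 they were Pop7, a subunit of RNase P and RNase MRP, at r = 0.991, Napepld, an enzyme of anandamide synthesis, at 0.987, and Pdk3, a pyruvate dehydrogenase kinase, at 0.986. For Fgf2 they were the nuclear export receptor gene Cse1l (r = 0.991), 1 probe of the ribosomal protein gene Rpl13a (0.990) and the ubiquitin ligase adaptor Ndfip1 (0.986). For Pdcd10 they were 1 probe of Sdha (r = 0.997), the pyrophosphate-producing enzyme Enpp1 (0.996) and the adaptor Ndfip2 (0.996). The median r over the 55 probes was 0.857 for Cdh2, 0.899 for Fgf2 and 0.908 for Pdcd10, so a high r was common among mRNA probes. The differences of these 9 probes ranged from 0.35 for Rpl13a to 0.95 for Napepld. After the mean of each group was removed, r ranged from 0.87 for Fgf2 with Ndfip1 to 0.998 for Pdcd10 with Enpp1. These values lie above those among the 3 genes themselves, and the 9 probes were picked for a high r.

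The size of each difference moved with the processing, and its sign did not. The difference was above 0 in all 19 alternatives run for each of the 3 genes. With arrays left out or a block added the sign was fixed in advance, since every DEHP array lay above every control array. The other alternatives process again the same arrays whose difference chose the genes, so their sign is a description and no support. Leaving out 1 array at a time gave 1.07 to 1.51 for Cdh2, 0.66 to 0.84 for Fgf2 and 0.88 to 1.13 for Pdcd10. The calls below describe the values that chose the genes and support nothing. Probes were not filtered again with arrays left out, so Cdh2 and Fgf2 stayed in through all 3 DEHP arrays. All 3 probes were called without control 1 and without control 2, where 11.2% and 19.5% of all probes were. None was called without control 3, DEHP 1 or DEHP 2, where 2.36%, 2.07% and 1.19% of all probes were. Without DEHP 3, where 2.93% were, Cdh2 and Pdcd10 were called. Of all probes, 2.46% were called without centring, 15.8% with the percentile over probes detected on all 6 arrays, 13.6% with median centring and 9.33% with quantile normalization. The share was 8.09% with normexp and quantile normalization, 6.92% with normexp and percentile centring and 9.24% in the authors' deposited value table. Pdcd10 was called in each of these. Cdh2 was not called with quantile normalization or normexp. Fgf2 was not called without centring, with median centring, with quantile normalization, with normexp or in the authors' deposited value table.

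**Figure D4:**
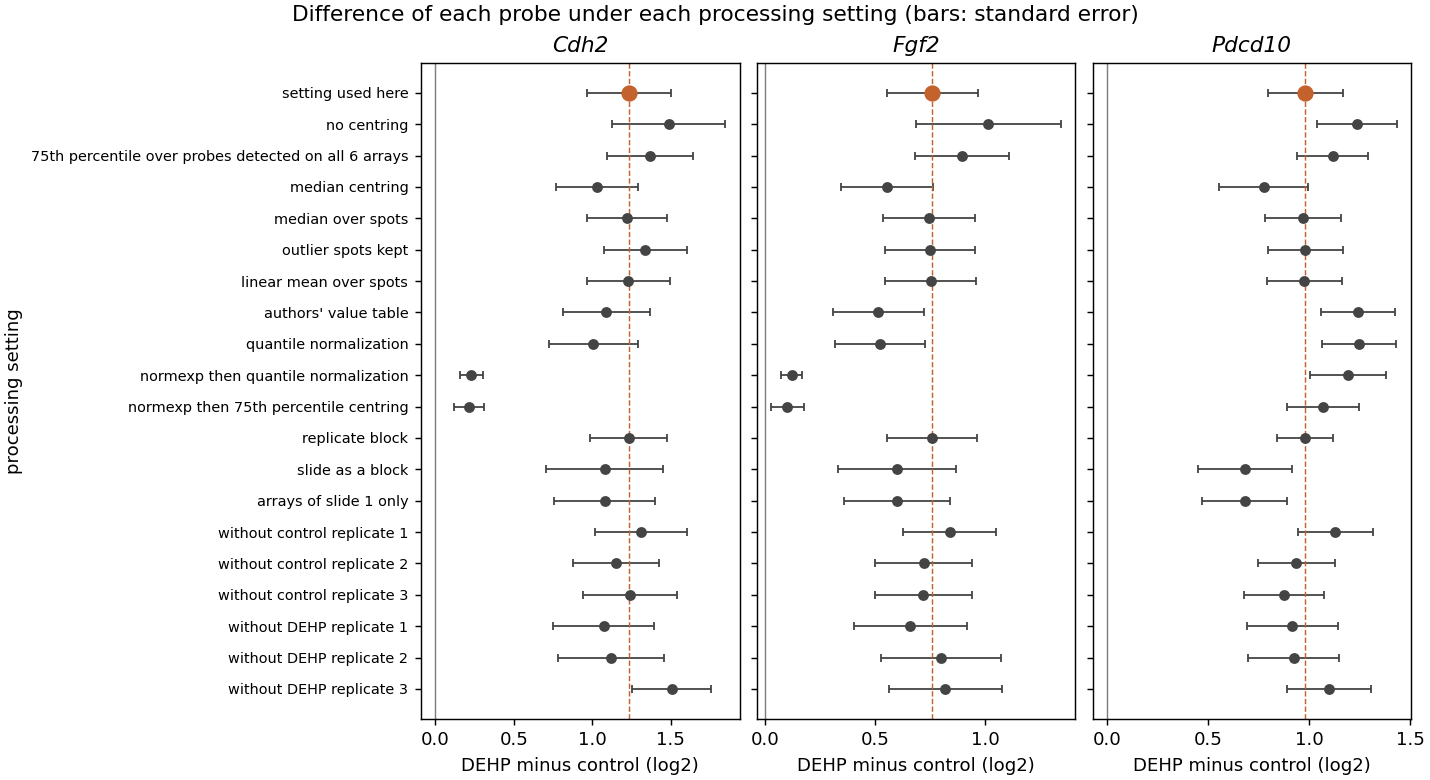
Difference of DEHP minus control on the log2 scale (x axis) for Cdh2, Fgf2 and Pdcd10 under the setting used here, in colour, and under each of 19 alternatives (y axis), with standard errors as bars. All points lie to the right of 0. Both normexp settings pull Cdh2 and Fgf2 close to 0 and leave Pdcd10 at 1.07 and 1.19.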

How the data were processed

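Whole-testis RNA of 6 rats, labelled with Cy3 as cRNA, was read on one-colour arrays. The deposited scanner files, made with Agilent Feature Extraction 11.0.1.1 per the file headers, give each spot a background-subtracted intensity, raw spot and background intensities, and flags of other kinds (0 or 1). The authors also deposited a table of log2 values, whose method was not stated in the labels or headers. It served as an alternative.

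Samples were grouped by title. Outlier and control spots were left out. The counts of flagged spots, local backgrounds, raw spot medians and correlations between spots of the 3 genes took in all 10 spots. Log2 intensities after background subtraction were averaged over a probe's spots, 10 for each of the 3 genes, and the array's 75th percentile was subtracted. A probe counted as well above background on an array if at least 50% of its spots did. Probes well above background on at least 3 of 6 arrays were kept and fitted with limma 3.58.1 in R 4.3.3 (eBayes with trend, Benjamini-Hochberg adjustment, threshold 0.05), after a test on simulated data. The simulation gave every probe the same spread and held no slide effect or detection floor, so it does not check the fit on those points. The number of arrays limits the precision.

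The genes, lists and tests were chosen with earlier results of these data known. Named were the 3 genes, listed genes with a probe, and the 3 mRNA probes most correlated with each gene. Accessions matched RefSeq genes of GRCr8 for 61 of 67 mRNA probes. Alternatives were other scalings, background corrections, spot summaries, filters and moderation, the authors' table, slide and replicate blocks, and each array left out. A linear mean over spots was added after the data were seen. Normexp was planned on the median or mean spot signal and run on the median. Slides were read from the scan identifier in the headers. Plots used matplotlib 3.10.9.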

Additional observations from a re-analysis of the deposited data

How the results depend on the processing

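Differences that moved by more than the SD between replicates were those of Cdh2 with normexp (0.23 with quantile normalization, 0.21 with percentile centring), of Fgf2 without centring (1.01), with median centring (0.55), in the authors' table (0.51), with quantile normalization (0.52), with normexp (0.12 and 0.10) and with the slide as a block or slide 1 alone (0.60 in both), and of Pdcd10 without centring (1.23), in the authors' table (1.24), with quantile normalization (1.25) and with the slide as a block or slide 1 alone (0.68 in both). The count of probes called over the array, 2471, was 568 without centring, 1598 with normexp and percentile centring, 7 with the slide as a block, and 275 to 4512 with 1 array left out, the highest count lacking control 2. Lacking control 3, DEHP 1, DEHP 2 and DEHP 3 gave 544, 477, 275 and 676. Of called probes 41.5% were higher, against 55.6% without centring, 68.6% with the percentile over probes detected on all arrays, 9.50% with median centring, 31.3% with normexp and percentile centring, 30.6% with the filter at all 6 arrays, 0 of 7 with the slide as a block, and 18.9%, 20.1%, 9.09% and 22.8% lacking control 3, DEHP 1, DEHP 2 and DEHP 3. The median of all probes was 0.31, 0.19 and -0.15 in the first 3 of these. The causes were not tested. Replicate numbers were read as names of samples, and whether same-numbered arrays form pairs cannot be told. Deviations of same-numbered arrays correlated at 0.13, 0.46 and 0.08, and those of differently numbered arrays at -0.43 to 0.29. With the replicate block 4465 probes (19.3%) were called, among them all 3 genes, with unchanged differences. For Cdh2 and Fgf2 the filter at all 6 arrays gave no value. Dim signals limit both: their control level is known only as a bound.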

Other observations

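The 10 spots of the Pdcd10 probe kept a common order from array to array. The correlation of their log2 signals between arrays, over 10 spots and 15 pairs of arrays, ranged from 0.68 to 0.96 with a median of 0.85. For Cdh2 it ranged from -0.43 to 0.67, with a median of 0.27, and for Fgf2 from -0.19 to 0.52, with a median of 0.24. The spots share their positions on the array.

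The Sdha probe whose profile was most like that of Pdcd10 had a difference of 0.91 between the groups, while the other 2 probes of Sdha had -0.35 and -0.34.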
